A study of Mus musculus with 24 samples.

Results

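The Hox genes of the mouse were followed through 2 fat depots and a muscle of the obese NZO strain and the lean B6 strain. All gene names on the array that consist of Hox, a cluster letter from a to d and a number were taken, which gave 39 genes of 34756 gene names. These are 11 genes of the HoxA cluster on chromosome 6, 10 of HoxB on chromosome 11, 9 of HoxC on chromosome 15 and 9 of HoxD on chromosome 2. A gene with several probes was represented by the probe with the highest mean. The genes were taken by name alone, but the family itself was chosen with earlier results of these data known.

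The arrays were made from male mice of strains NZO/HiBomDife (NZO) and C57BL/6 (B6), all fed a diet with 45% fat up to week 6 (whether of age or of feeding is not stated). The 24 one-colour arrays form 6 groups of 4, 3 per strain: the white fat beside the gonads (gWAT), the brown fat (BAT) and a skeletal muscle that the sample names call quad. No group was fed another diet, so every level below was measured on high fat. One B6 muscle array, replicate 011, was left out by the rule that chose the genes; its summed level of mature adipocyte markers was 10.59 on the log2 scale, against 7.40 to 7.71 on the 3 other B6 muscle arrays. The labels do not say whether the arrays of a group came from separate animals, so the p-values measure the spread between these samples only. A whole piece of tissue was measured, so fewer cells of a type and less RNA per cell cannot be told apart.

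Hox genes encode transcription factors that bind DNA through a homeodomain, the protein stretch coded by the homeobox. They lie in clusters in which gene order follows the place of expression along the body: low numbers are used toward the head, high numbers toward the tail, and in the limbs the 5' genes with the highest numbers pattern the parts farther from the trunk. Adult fat depots and muscles retain much of the pattern their progenitors had in the embryo. Gonadal fat lies in the abdomen, most brown fat lies between the shoulder blades, and the quadriceps is a muscle of the hind limb.

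The Hoxc11 probe covers a conserved part of the homeobox and is shown because its gene was measured only in muscle. Capitals mark the codons for the core of the helix that reads the DNA. The probe lies at chr15:102787022-102787081 on the plus strand of mm9, as the files give it.
Hoxc11 probe: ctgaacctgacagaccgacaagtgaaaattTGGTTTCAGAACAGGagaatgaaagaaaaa

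Of the 39 genes, 22 have a promoter window in the RefSeq table used here (build GRCm38.p6). The 250 bases before the start hold a median of 12.5 CG pairs over 24 Hox windows, against 6 over all 32851 windows of that length. Windows are printed for 3 neighbours of the HoxA cluster whose tissue patterns part most clearly below: Hoxa5, which was measured in every group, and Hoxa10 and Hoxa11, which were measured only in muscle. Capitals mark CG pairs. The windows are chr6:52204588-52204837 for Hoxa5, chr6:52240855-52241104 for the more upstream start of Hoxa10 and chr6:52245811-52246060 for Hoxa11, all on the minus strand and written 5' to 3' along the gene.
Hoxa5: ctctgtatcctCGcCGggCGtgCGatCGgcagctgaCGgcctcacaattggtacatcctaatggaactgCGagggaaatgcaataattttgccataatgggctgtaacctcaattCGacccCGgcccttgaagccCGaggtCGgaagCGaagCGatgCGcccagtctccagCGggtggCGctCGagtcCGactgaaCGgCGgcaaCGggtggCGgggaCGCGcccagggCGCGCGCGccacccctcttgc
Hoxa10: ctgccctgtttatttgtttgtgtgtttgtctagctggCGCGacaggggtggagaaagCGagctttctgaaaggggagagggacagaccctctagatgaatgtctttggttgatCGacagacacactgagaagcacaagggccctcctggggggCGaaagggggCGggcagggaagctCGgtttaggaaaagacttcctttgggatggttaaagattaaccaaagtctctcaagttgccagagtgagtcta
Hoxa11: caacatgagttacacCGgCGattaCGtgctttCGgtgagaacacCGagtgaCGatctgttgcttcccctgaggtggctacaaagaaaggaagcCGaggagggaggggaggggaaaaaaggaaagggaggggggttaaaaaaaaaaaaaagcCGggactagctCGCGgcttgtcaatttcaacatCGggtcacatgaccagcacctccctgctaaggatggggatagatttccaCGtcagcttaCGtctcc
The Hoxa5 window holds 28 CG pairs, a number that 7.61% of all windows reach. The Hoxa11 window holds 13, reached by 31.5%, and the printed Hoxa10 window 7, reached by 46.3%. The other Hoxa10 window, chr6:52234940-52235189, is not printed and holds 20 CG pairs, so the count for Hoxa10 depends on the start used. The letters CCAAT, searched on both strands, occur in 14 of the 24 Hox windows and in 33.8% of all windows; TATAAA occurs in 4 of the Hox windows and in 12.4% of all.

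Levels are given as the log2 of Agilent's processed signal minus the 75th percentile of that signal on the same array, so a level of 0 lies at the array's 75th percentile. Levels of different genes come from different probes and are not compared. A gene is called well above background on an array where the scanner software's own test said so. Of the 39 genes, 18 were well above background on every array of all 6 groups, 11 on all arrays of some groups, 4 on some arrays but on all of no group (Hoxa13, Hoxb13, Hoxc12 and Hoxd10) and 6 on no array (Hoxb1, Hoxc13, Hoxd1, Hoxd11, Hoxd12 and Hoxd13). Between 52.9% and 60.4% of all spots were well above background on an array.

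**Figure D1:**
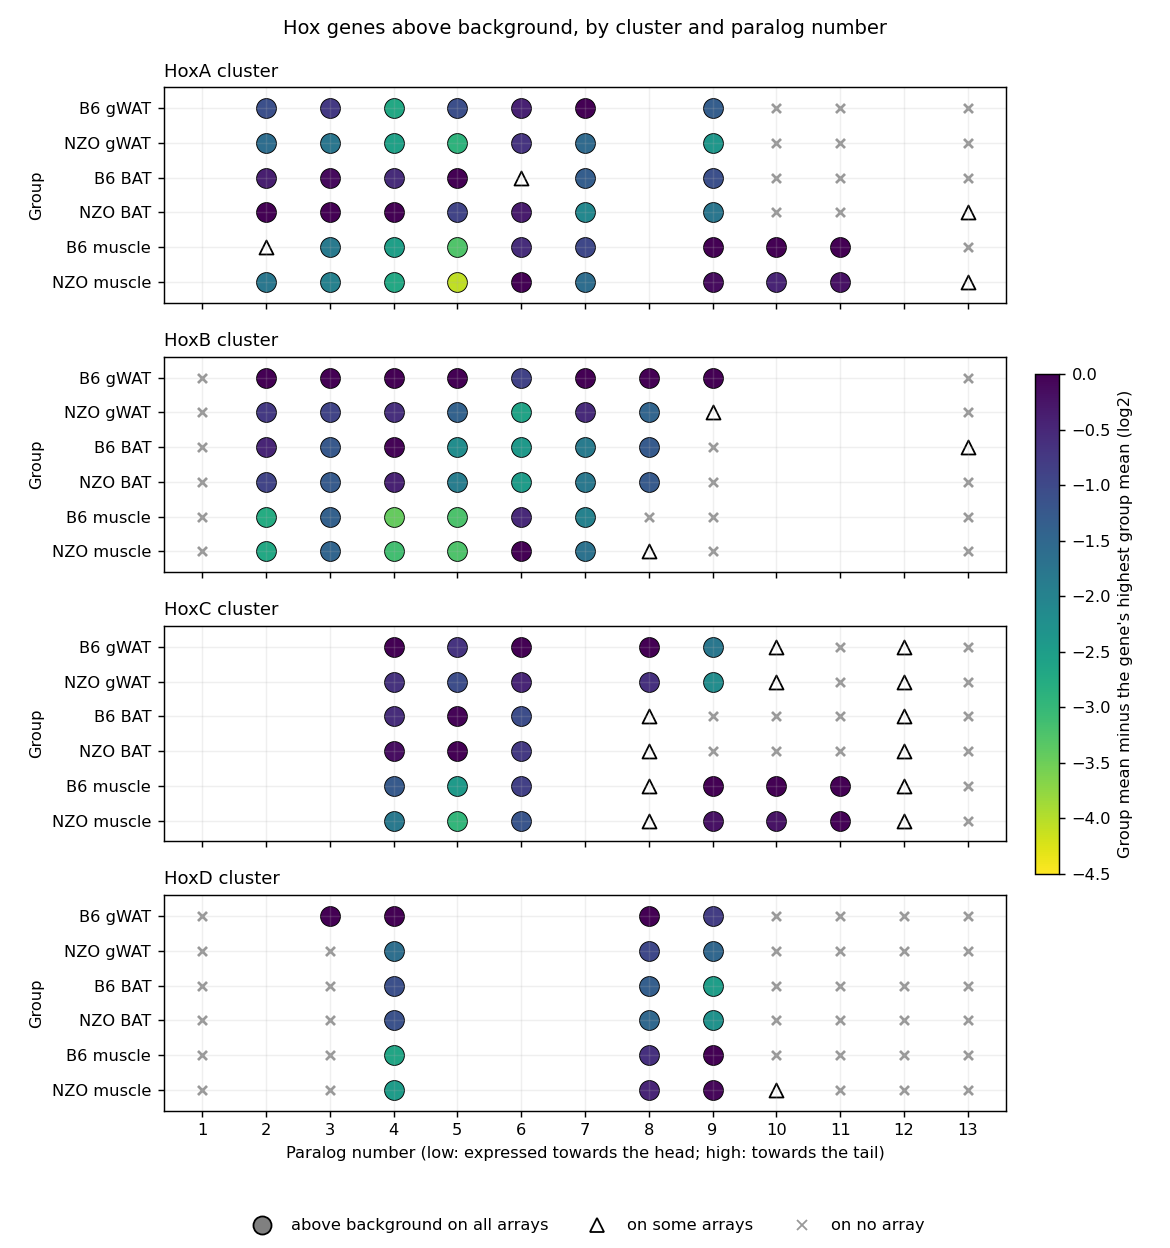
Hox genes by cluster (panels), number (x axis) and group (y axis). Filled circles are genes above background on all arrays of a group, coloured by the group mean minus the highest group mean of the same gene (log2); triangles were above background on some arrays and crosses on none. HoxA and HoxC circles reach number 11 in muscle only, and HoxC circles stop at 6 in BAT.

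The tissues differed in how far along the clusters genes were measured. In the HoxC cluster, the highest number well above background on all arrays was 6 in BAT, 9 in gWAT and 11 in muscle, in both strains. In the HoxA cluster it was 9 in both fats and 11 in muscle. HoxB ran the other way: it reached 9 in B6 gWAT, 8 in NZO gWAT and in BAT of both strains, and 7 in muscle, while HoxD reached 9 in all 6 groups. Of the 16 genes numbered 9 to 13, 7 were measured on all arrays of muscle in either strain, 4 in B6 gWAT, 3 in NZO gWAT and 2 in BAT of either strain.

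Hoxc9 parted each tissue from the others. HoxC genes numbered 9 to 11 are known from the lumbar region and the hind limb. The Hoxc9 level was 1.69, 1.83, 1.81 and 1.66 on the B6 gWAT arrays and 1.51, 0.33, 1.24 and 2.27 on the NZO gWAT arrays. It was 3.42, 3.55 and 3.60 in B6 muscle and 3.28, 3.36, 3.38 and 3.29 in NZO muscle. No BAT array was well above background, with signals between -6.53 and -6.08. Every muscle array was thus above every gWAT array, and the groups did not overlap. Muscle exceeded gWAT by 1.78 (SE 0.09, limma adjusted p = 4.63e-06) in B6 and by 1.99 (SE 0.35, limma adjusted p = 0.00106) in NZO. Against BAT only a lower bound can be given, which sets the bright group's mean against the dimmest signal still called above background on each BAT array. On this scale gWAT was at least 66.9-fold higher than BAT in B6 (means 1.75 and -6.32) and at least 57.3-fold higher in NZO (means 1.34 and -6.31). Muscle was at least 229-fold higher than BAT in B6 and at least 228-fold higher in NZO. These bounds, and those below, belong to the processed signal and do not hold under another background treatment. With normexp correction, which adds an offset of 50 to every signal, the Hoxc9 log2 difference of BAT against gWAT was -3.38 in B6 and -3.00 in NZO, and that of muscle against BAT was 4.92 and 4.80; all 4 still passed.

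Hoxc8, its neighbour, marked gWAT rather than muscle. Its level was 0.25, 0.30, -0.09 and 0.57 in B6 gWAT and -0.28, -0.79, -0.62 and 0.23 in NZO gWAT. In BAT it was well above background on 3 of 4 B6 arrays and 2 of 4 NZO arrays, with means of -4.00 and -3.65. In muscle it was above background on 2 of 3 B6 arrays and 3 of 4 NZO arrays, with means of -3.86 and -4.30. Every gWAT array was above every BAT and muscle array of its strain. The difference of the group means from gWAT, which for BAT and muscle take in signals not above background, was -4.26 (SE 0.16, limma adjusted p = 4.58e-07) for BAT and -4.11 (SE 0.20, limma adjusted p = 3.56e-06) for muscle in B6, and -3.29 (SE 0.50) and -3.94 (SE 0.24) in NZO. With normexp correction the values shrank to -1.90 and -1.86 in B6 and -1.29 and -1.55 in NZO and still passed.

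Hoxa10, Hoxa11 and Hoxc11, genes of the limb and the hind trunk, were measured in muscle and on no array of either fat. Hoxa10 was at 0.15, 0.08 and 0.44 in B6 muscle and at -0.19, -0.25, -0.13 and -0.30 in NZO muscle, while its fat signals lay between -7.31 and -5.53. Hoxa10 was at least 39.9-fold higher in muscle than in gWAT in B6 (limma adjusted p = 1.6e-07) and at least 27.8-fold in NZO (limma adjusted p = 6.21e-07). Hoxc11 was at -0.50, -0.82 and -0.74 in B6 muscle and at -0.71, -1.01, -0.45 and -0.69 in NZO muscle, at least 21.2-fold and 19.8-fold above gWAT. Hoxa11 was at -2.15, -2.56 and -2.40 in B6 muscle and at -2.82, -2.71, -1.63 and -3.15 in NZO muscle, at least 6.62-fold and 5.43-fold above gWAT. The muscle arrays of these genes lay apart from all fat arrays in both strains. With normexp correction the log2 differences of muscle against gWAT were 2.79 and 2.32 for Hoxa10 and 2.08 and 1.95 for Hoxc11. The bounds over BAT were 23.3-fold and 19.5-fold for Hoxa10, 12.4-fold and 13.8-fold for Hoxc11, and 3.86-fold and 3.80-fold for Hoxa11, in B6 and NZO.

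Hoxc10 stood between these patterns. It was at 1.79, 1.77 and 1.99 in B6 muscle and within 1.61 to 1.65 in NZO muscle. In gWAT it was well above background on 1 of 4 B6 arrays and 2 of 4 NZO arrays, with means of -5.13 and -4.66, and on no BAT array. The muscle mean was above the gWAT mean by 6.99 (SE 0.34) in B6 and 6.29 (SE 0.25) in NZO; as most of the B6 gWAT signals were not above background, these are differences from a mean partly at background, and they were 3.91 and 3.62 with normexp correction. Muscle was at least 72.0-fold and 70.1-fold above BAT.

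**Figure D2:**
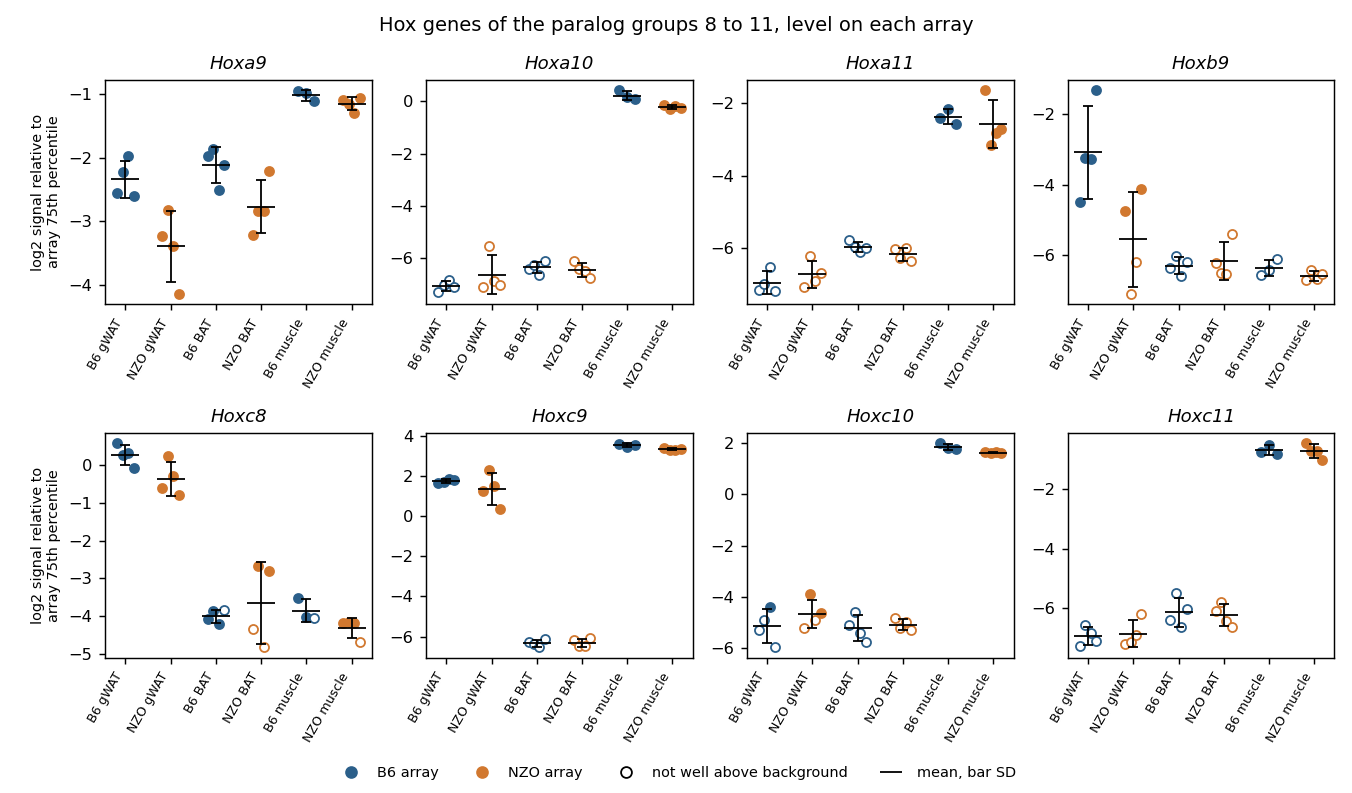
Log2 level relative to the array's 75th percentile for 8 Hox genes numbered 8 to 11, one point per array in the 6 groups, with the mean and SD; open points were not well above background. Hoxc9 lies between -6.53 and -6.08 in BAT, between 0.33 and 2.27 in gWAT and between 3.28 and 3.60 in muscle.

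The numbered-9 genes of HoxA and HoxD were above background on all arrays, by the probe that stands for each gene, and highest in muscle. Hoxa9 was above gWAT in muscle by 1.33 (SE 0.17, limma adjusted p = 0.000359) in B6 and 2.25 (SE 0.25, limma adjusted p = 6.97e-05) in NZO. A second Hoxa9 probe gave the same direction, with means of -0.98 and -1.09 in B6 and NZO muscle against -3.95 and -4.59 in gWAT. That probe was above background on all muscle and NZO gWAT arrays, but on 3 of 4 in B6 gWAT, 3 of 4 in B6 BAT and 2 of 4 in NZO BAT. Hoxd9 was at -0.40, -1.26 and -0.89 in B6 muscle, between -1.99 and -1.39 in B6 gWAT and between -3.79 and -2.89 in B6 BAT. The order muscle, gWAT, BAT held for Hoxd9 in NZO too, with means of -0.92, -2.34 and -3.12; all 6 pairwise differences between tissues passed the test. The call of muscle against gWAT in B6 was lost without B6 muscle replicate 010 (limma adjusted p = 0.0535), and BAT against gWAT in NZO was 0.048 with normexp correction and did not pass.

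The highest measured HoxB genes were measured on all arrays of fat groups but of no muscle group. Hoxb9 was at -3.25, -3.28, -1.31 and -4.50 in B6 gWAT, above background on 2 of 4 NZO gWAT arrays and on no array of BAT or muscle. In B6, gWAT was at least 2.35-fold higher than BAT and at least 2.35-fold higher than muscle. With normexp correction neither call remained, with log2 differences of -0.088 (limma adjusted p = 0.741) and -0.072 (limma adjusted p = 0.81). Every array of both fats had Hoxb8 well above background, but none of the 3 B6 muscle arrays and only 2 of 4 NZO muscle arrays did. B6 gWAT was at least 8.01-fold above B6 muscle for Hoxb8, and B6 BAT at least 3.32-fold.

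Hoxa3, Hoxa4 and Hoxa5 had their highest levels in BAT in both strains, by the probe that stands for each gene. A second, dim Hoxa3 probe had its highest B6 mean in gWAT (-4.01, above background on 4 of 4 arrays), against -4.51 in BAT (1 of 4). In NZO its means were -5.44 in gWAT (2 of 4) and -4.21 in BAT (1 of 4). Hoxa4 was at -0.55, -0.07, -0.05 and -0.30 in B6 BAT and at 0.35, 0.55, 0.01 and 0.31 in NZO BAT, against -2.52 to -2.17 in B6 gWAT and -2.35 to -2.18 in NZO gWAT. Every BAT array was above every gWAT array. Hoxa4 was 4.43-fold higher in BAT in B6 (log2 difference 2.15, SE 0.14, limma adjusted p = 5.91e-06) and 5.93-fold higher in NZO (2.57, SE 0.13, limma adjusted p = 1.04e-06). Hoxa5, which patterns the lower neck and the upper trunk, was at 0.15, 0.39, 0.19 and 0.31 in B6 BAT and at -1.08, -0.67, -0.93 and -0.63 in B6 gWAT. In NZO it was at -0.39, -0.60, -0.69 and -0.93 in BAT and at -2.65, -2.82, -2.36 and -2.78 in gWAT. The Hoxa5 groups did not overlap in either strain, and the difference was 1.09 (SE 0.12) in B6 and 2.0 (SE 0.16) in NZO.

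BAT was compared with gWAT over the Hox genes measured on all arrays of both. In B6, 20 genes were measured and 16 of them passed the test (limma, Benjamini-Hochberg over all genes, adjusted p under 0.05), 5 higher and 11 lower in BAT, with 62.3% of all genes measured this way passing. In NZO, 10 of 21 passed, 6 higher and 4 lower, against 63.0% of all genes. The median Hox difference was -0.81 in B6 and 0.20 in NZO, against 0.17 and 0.25 over all genes. Hoxa2, Hoxa3, Hoxa4, Hoxa5 and Hoxc5 were higher in BAT in both strains. Of these, Hoxa2, Hoxa3 and Hoxc5 no longer passed in B6 with arrays centred on their median, nor Hoxc5 in NZO, and Hoxa3 was 0.057 in B6 with the mean of its probes; Hoxa4 and Hoxa5 passed under every alternative in both strains. Lower in BAT in both were Hoxa7, Hoxb7, Hoxc8, Hoxc9, Hoxd8 and Hoxd9, which are 6 of the 15 lower calls over all tested Hox genes in B6 and all 6 in NZO. How many calls the strains shared over all genes was not counted. The split of higher and lower calls moved with the scaling: over all tested Hox genes it was 5 and 15 in B6 and 6 and 6 in NZO, and 2 and 16 and 4 and 10 with arrays centred on their median. That centring moved the median of all genes from 0.15 to -0.11 in B6 and from 0.25 to -0.25 in NZO. Without the filter on dim probes it was 14 and 15 in B6 and 13 and 6 in NZO, where the added genes were above background throughout neither tissue.

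Of the central HoxB genes, Hoxb5 and Hoxb6 were lower in BAT than in gWAT in B6 (log2 differences -2.19, SE 0.15, and -1.53, SE 0.12). The same differences were -0.49 (SE 0.23) and 0.15 (SE 0.31) in NZO and did not pass. The Hoxb5 means in BAT were -1.64 in B6 and -1.33 in NZO, and those in gWAT 0.56 and -0.84. Hoxb4 differed little between the fats, by -0.05 (SE 0.10) in B6 and 0.20 (SE 0.14) in NZO.

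**Figure D3:**
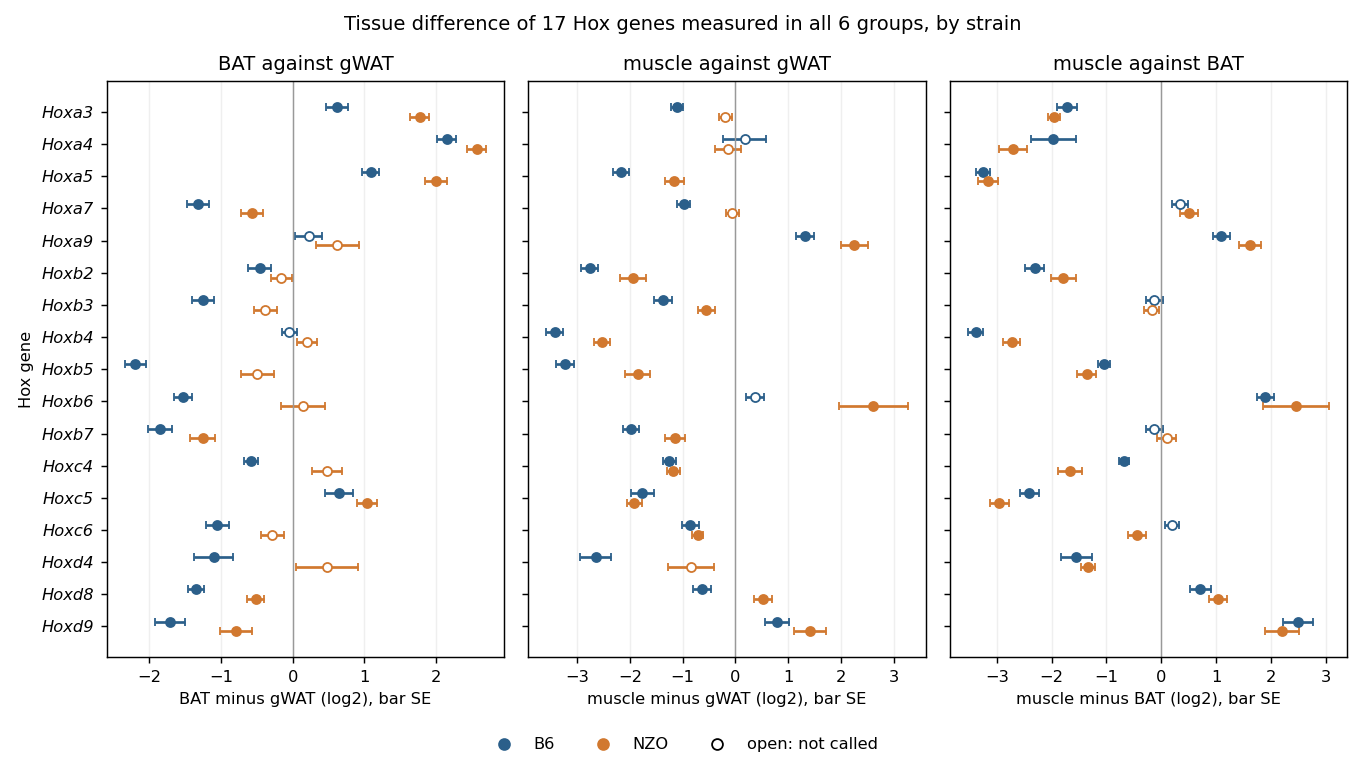
Log2 difference between tissues, with its SE, for 17 Hox genes above background on all arrays of all 6 groups, in B6 and NZO; filled points passed the test over all genes. Hoxa4 stands at 2.15 in B6 and 2.57 in NZO for BAT against gWAT, and Hoxb4 at -3.43 and -2.53 for muscle against gWAT.

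In muscle the Hox genes split by number. Measured in both tissues of B6, 17 of 20 Hox genes passed the test against gWAT, 3 higher and 14 lower, with 71.8% of all genes passing. In NZO, 16 of 21 passed, 6 higher and 10 lower, with 66.6% of all genes passing. The 3 higher genes in B6 were Hoxa9, Hoxc9 and Hoxd9, which are all the measured genes numbered 9 and above, and the same 3 were higher in NZO. Of the 4 measured B6 genes numbered 1 to 3 all were lower in muscle, with a median of -2.07, and of the 13 numbered 4 to 8, 10 were lower, with a median of -1.26. In NZO these were 3 of 5 and 7 of 13, with medians of -0.55 and -0.85, and Hoxa6, Hoxb6 and Hoxd8 were higher in muscle. Over all tested Hox genes the NZO calls were 10 higher and 11 lower, and 8 and 15 with arrays centred on their median, which moved the median of all genes from 0.11 to -0.36. Hoxa6 and Hoxd8 were among the calls lost with that centring. In B6 the calls were 7 and 19, and 10 and 16 with normexp background correction. Without the filter on dim probes they were 15 and 19 in B6 and 18 and 11 in NZO, where the added genes were above background throughout neither tissue.

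Hoxb4 fell from fat to muscle in both strains. It was at -1.31, -1.80 and -1.79 in B6 muscle and at 1.77, 1.93, 1.59 and 1.91 in B6 gWAT. In NZO it was at -1.24, -1.47, -1.59 and -1.07 in muscle and at 1.26, 1.23, 1.32 and 0.93 in gWAT. The groups lay far apart, 10.8-fold in B6 (log2 difference -3.43, SE 0.16, limma adjusted p = 2.73e-06) and 5.76-fold in NZO (-2.53, SE 0.15, limma adjusted p = 1.5e-06). Hoxb2 and Hoxb5 were also lower in muscle, with log2 differences of -2.77 and -3.23 in B6 and -1.94 and -1.85 in NZO. Hoxd8 went in opposite directions, -0.63 (SE 0.17) in B6 and 0.52 (SE 0.17) in NZO. Same-numbered B6 samples of these tissues deviated together, and with the sample number as a block the B6 value was -0.64 and no longer passed (limma adjusted p = 0.0529). In NZO the value was 0.056 with arrays centred on their median (limma adjusted p = 0.856), and the call was also lost in the deposited table and without gWAT replicate 009, 012 or 007 or muscle replicate 009 or 003.

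Both Hoxb3 probes were above background on all fat arrays, but they disagreed in muscle. The brighter probe, which stands for the gene here and for which the files also list a transcript of Hoxd3, was above background on all muscle arrays. The other probe was above background on none of the 3 B6 and 1 of 4 NZO muscle arrays.

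Against BAT, 14 of 18 Hox genes measured in both tissues passed the test in B6, 4 higher and 10 lower in muscle, with 64.7% of all genes passing. In NZO 17 of 20 passed, 5 higher and 12 lower, with 61.2% of all genes passing. The medians were -0.86 and -1.35, against -0.10 and -0.14 over all genes. Over all tested Hox genes, 9 higher and 12 lower calls were shared by both strains, out of 9 and 12 in B6 and 10 and 13 in NZO. Sharing between the strains was not counted over all genes, so this overlap is not read as particular to Hox genes. The shared higher genes were Hoxa9, Hoxa10, Hoxa11, Hoxb6, Hoxc9, Hoxc10, Hoxc11, Hoxd8 and Hoxd9. Hoxa5 fell by 3.25 (SE 0.13) on the log2 scale in B6 and by 3.16 (SE 0.18) in NZO.

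Hoxb6 was the exception among the low-numbered HoxB genes, being higher in muscle than in BAT. It was at 1.79, 1.46 and 2.03 in B6 muscle and at 1.89, 3.92, 0.61 and 2.67 in NZO muscle, where the arrays spread widely (SD 1.39, n = 4). Its BAT levels lay between -0.33 and -0.02 in B6 and between -0.51 and 0.03 in NZO. The groups did not overlap, with differences of 1.90 (SE 0.15) and 2.46 (SE 0.61).

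**Figure D4:**
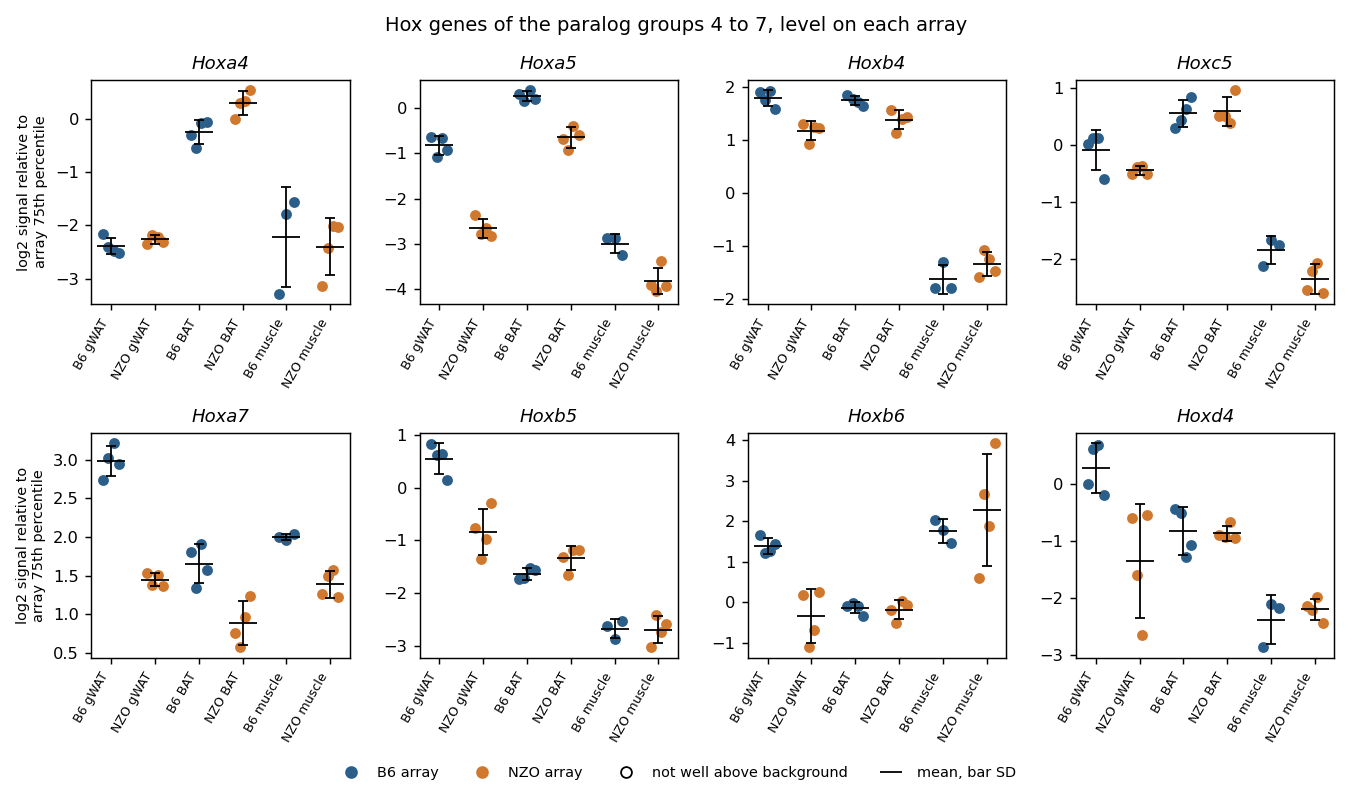
Log2 level relative to the array's 75th percentile for 8 Hox genes numbered 4 to 7, one point per array in the 6 groups, with the mean and SD. Hoxa4 is higher on every BAT array than on every gWAT array, and Hoxa5, Hoxa7 and Hoxb5 are lower on every NZO gWAT array than on every B6 gWAT array.

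The strains differed mainly in white fat. Of 23 Hox genes measured on all gWAT arrays of both strains, 16 were lower in NZO and none was higher, where 14.7% of all genes measured this way were lower and 30.7% passed in either direction. By limma's unadjusted p under 0.05 these counts were 18 lower and 0 higher. The median Hox difference was -0.75, against 0.01 over all genes, and 22 of the 23 differences were negative. Hoxa4, the remaining one, differed by 0.13 (SE 0.11). Among all tested Hox genes the calls were 18, and with arrays centred on their median, which moved the median of all genes from -0.01 to 0.28, they were 11, all lower.

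Hoxa5, Hoxa7 and Hoxb6 were among the largest of these strain differences. Hoxa5, whose 4 levels per strain stand above, was 3.54-fold lower in NZO gWAT (log2 difference -1.82, SE 0.15, limma adjusted p = 7.62e-05). Hoxa7 was at 3.03, 3.21, 2.95 and 2.74 in B6 and at 1.51, 1.37, 1.53 and 1.38 in NZO, a 2.90-fold difference (-1.53, SE 0.12, limma adjusted p = 6.2e-05). Hoxb6 was at 1.21, 1.26, 1.44 and 1.66 in B6 and at -0.67, 0.25, 0.17 and -1.11 in NZO, a 3.32-fold difference (-1.73, SE 0.31, limma adjusted p = 0.00378). The strains did not overlap for any of these genes. Hoxb5 was at 0.61, 0.64, 0.14 and 0.82 in B6 and at -0.97, -0.29, -0.76 and -1.35 in NZO, again without overlap (-1.40, SE 0.24).

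Lower calls fell in all 4 clusters. By number, 4 of the 5 measured genes numbered 1 to 3 were lower in NZO gWAT, 10 of 15 numbered 4 to 8 and 2 of 3 numbered 9 and above, with medians of -0.90, -0.64 and -0.69. In HoxA these included Hoxa3 (-1.03), Hoxa5, Hoxa7 and Hoxa9 (-1.06). In HoxB they were Hoxb2 (-0.75), Hoxb3 (-0.90), Hoxb4 (-0.61), Hoxb5, Hoxb6 and Hoxb7 (-0.54). In HoxC they were Hoxc4 (-0.64) and Hoxc6 (-0.47), and in HoxD Hoxd4 (-1.62), Hoxd8 (-0.98) and Hoxd9 (-0.69). With arrays centred on their median both HoxC calls were lost, so none was left in that cluster, and with them Hoxa9, Hoxb2, Hoxb4, Hoxb7 and Hoxd9. Hoxa2, Hoxa6, Hoxb8, Hoxc5, Hoxc8 and Hoxc9 had differences between -1.45 and -0.26 that did not pass. The second Hoxb3 probe had means of -2.49 in B6 and -3.37 in NZO gWAT and was not tested by itself.

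Hoxb9 and Hoxd3 were also lower, at the limit of what the arrays measured. Hoxd3 was at -4.43, -4.31, -3.27 and -4.69 in B6 gWAT and above background on no NZO gWAT array, which gives at least a 1.79-fold difference; with normexp correction the log2 difference was -0.17 and did not pass. Hoxb9 differed by -2.47 (SE 0.81, limma adjusted p = 0.0492) with 2 of 4 NZO arrays above background, and its strains overlapped. The Hoxb9 call was lost with quantile normalization, with normexp correction, without the filter on dim probes and in the deposited table.

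Leaving out 1 array at a time left between 12 and 16 of the 18 lower calls, and 11 genes passed in every such fit, among them Hoxa3, Hoxa5, Hoxa7, Hoxb2, Hoxb3, Hoxb4, Hoxb5, Hoxb6, Hoxc4 and Hoxd8. The count was 12 without B6 gWAT replicate 010 and 12 without B6 gWAT replicate 011. Of the calls lost, Hoxb7 and Hoxc6 did not pass in 7 of the 8 fits, Hoxb9 and Hoxd9 in 6, Hoxd4 in 4, Hoxa9 in 3 and Hoxd3 in 1. On the 2 slides that held gWAT arrays of both strains all 18 genes kept their sign, with a median of -1.22 on one and -0.97 on the other against -1.01 over all arrays. These arrays were among those that gave the calls, so the kept signs are no separate check.

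Other measures moved with strain in gWAT. The summed level of 7 macrophage markers was 7.49 to 7.71 on the NZO gWAT arrays and 6.12 to 6.51 on the B6 ones, and all 7 were higher in NZO. Brown adipocyte markers summed to 5.79 to 6.48 in NZO and 2.61 to 3.54 in B6, and 4 of 6 were higher in NZO. Liver markers summed to 6.52 to 7.61 in NZO and 8.33 to 8.72 in B6, with 1 of 5 lower in NZO. The median difference of those 5 was 0.56, so the sum and the median went opposite ways. Mature adipocyte markers (11.23 to 11.74 in NZO, 11.25 to 11.49 in B6) and markers of progenitors and fibroblasts (8.00 to 8.32 and 8.06 to 8.37) overlapped between the strains, as did mesothelial markers (3.54 to 3.77 and 3.56 to 4.94). Single markers of these lists differed all the same: 3 of 8 adipocyte markers were higher and 2 lower in NZO, 2 of 8 progenitor and fibroblast markers higher and 1 lower, and 1 of 6 mesothelial markers lower. The median difference was -0.87 over the 6 mesothelial markers, -0.10 over the adipocyte markers and 0.01 over the progenitor and fibroblast markers. Over all genes it was 0.01. Of the epididymis markers, 6 of 8 in NZO gWAT and 5 of 8 in B6 gWAT were above background on no array. The part of any of these in the Hox differences was not tested.

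In BAT and muscle fewer Hox genes differed between the strains. In BAT 3 of 20 passed, with 14.3% of all genes passing: Hoxa4 was higher in NZO by 0.55 (SE 0.15), and Hoxa5 and Hoxa7 were lower, by -0.91 (SE 0.13) and -0.77 (SE 0.18). The Hoxa4 call was lost under 5 alternatives, and with arrays centred on their median 1 gene was higher and 1 lower. In muscle 3 of 24 passed, with 10% of all genes passing (1886 of 18860), and all were lower in NZO: Hoxa5 (-0.82, SE 0.19), Hoxa7 (-0.61, SE 0.12) and Hoxc4 (-0.56, SE 0.14). None of the 3 passed with arrays centred on their median or without the filter on dim probes. By limma's unadjusted p under 0.05, 6 were lower and 1 was higher in muscle. Hoxa5 and Hoxa7 were thus lower in NZO in all 3 tissues, although Hoxa5 in BAT was the only one of the 6 calls in BAT and muscle to pass in every fit that left out an array. The BAT count was 1 without replicate 009 of either strain, and the muscle count was 0 without B6 replicate 010, B6 replicate 009 or NZO replicate 003 and 1 without B6 replicate 015 or NZO replicate 011 or 007.

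The difference between the tissues in the strain effect was tested as an interaction over all 23 arrays. For BAT against gWAT, all 20 measured Hox genes had a value above 0, meaning that NZO stood relatively higher in BAT than in gWAT, and 10 passed, where 9.55% of all genes passed in this direction and 19.8% in either. For muscle against gWAT, 12 of 20 passed and all were above 0, where 8.76% of all genes passed in this direction and 21.8% in either. The Hox medians were 0.87 in both, against -0.02 and -0.05 over all genes. None of these measured genes passed in the other direction, also at limma's unadjusted p under 0.05 (0 and 0). Over all tested Hox genes 1 was below 0 at an unadjusted p under 0.05 for muscle against gWAT: Hoxa10, measured in muscle only, with -0.89, which passed the adjusted test with median centring, with normexp correction and in the deposited table. Both comparisons share the gWAT arrays, so they are not independent of each other. Hoxb5 had values of 1.70 (SE 0.27, limma adjusted p = 0.000208) and 1.38 (SE 0.28, limma adjusted p = 0.00206), and Hoxa3 of 1.15 (SE 0.18) and 0.91 (SE 0.19). Between muscle and BAT, 1 of 18 Hox genes passed, Hoxc4 with -0.98 (SE 0.23), where 5.97% of all genes passed. With arrays centred on their median the calls over all tested Hox genes fell from 12 to 5 for BAT and from 14 to 5 for muscle, of which all 5 and 4 of 5 were above 0.

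**Figure D5:**
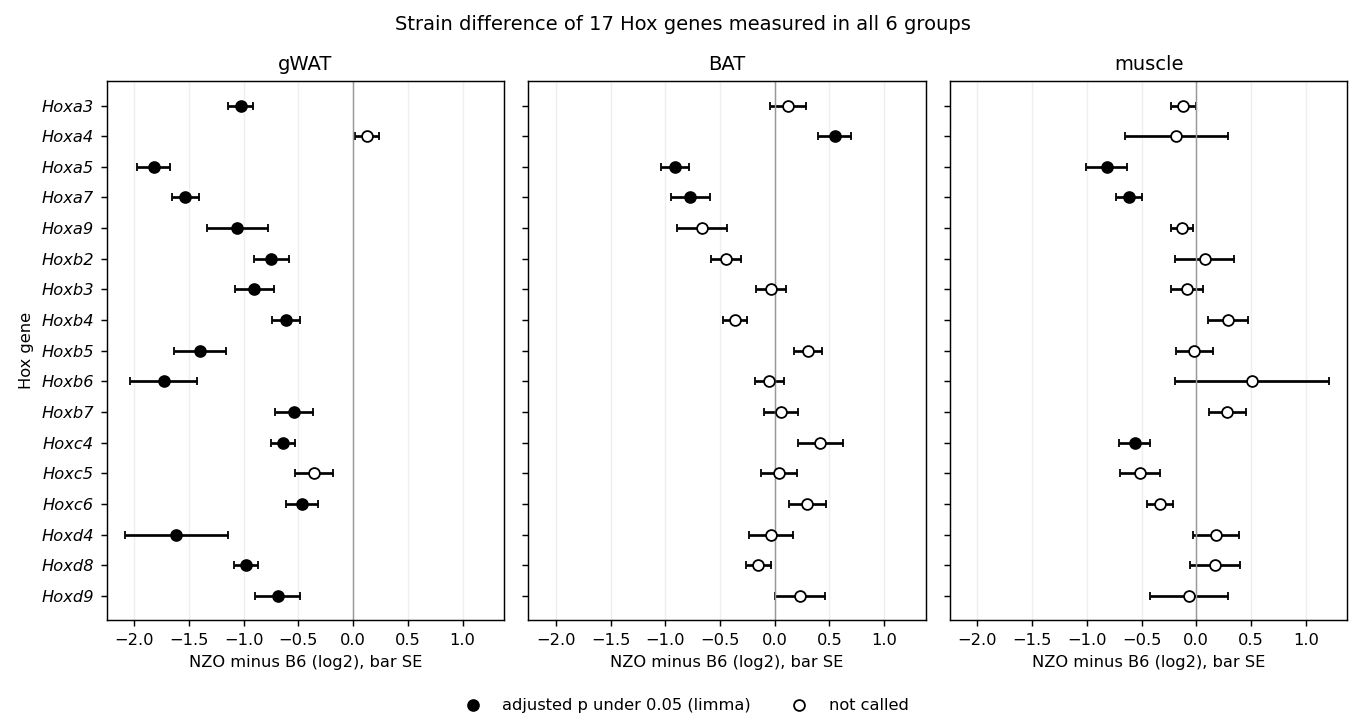
Log2 difference of NZO minus B6, with its SE, in gWAT, BAT and muscle for 17 Hox genes above background on all arrays of all 6 groups; filled points passed the test over all genes. In gWAT 15 of the 17 passed, all below 0, and in BAT and muscle 3 each.

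In B6 BAT, muscle fibre markers were also present: their sum was 7.63 to 9.71 on B6 BAT arrays, -0.16 to 2.79 on NZO BAT arrays and 13.03 to 13.43 in muscle. Their part in the Hox differences was not tested.

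Hox proteins bind DNA with cofactors of the Pbx, Meis and Pknox families, and these were read from a list of 9 genes. In NZO gWAT against B6, of 8 measured cofactors 3 were lower and 1 higher, where 14.7% of all measured genes were lower and 30.7% passed in either direction. Meis1, a partner of many Hox proteins, had a mean of 2.22 (SD 0.07, n = 4) in B6 and 1.40 (SD 0.02, n = 4) in NZO, a difference of -0.82 (SE 0.09, limma adjusted p = 0.000266), and the interaction against BAT and against muscle passed as well. Meis2 differed by -1.13 (SE 0.10) in gWAT and by -1.18 (SE 0.14) in BAT, and Pbx2 by -0.39 (SE 0.10) in gWAT. Pknox2 went the other way in gWAT, from a mean of -2.65 in B6 to 0.40 in NZO (difference 3.05, SE 0.12, limma adjusted p = 2.59e-06), and had its highest mean in B6 muscle, at 2.74.

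Of 28 chromatin and upstream regulators of Hox genes, 25 were tested in gWAT between the strains, and 2 were higher and 6 lower in NZO, a share near the 30.7% of all measured genes that passed. Their median over the 24 measured ones was -0.11, against 0.01 over all genes. Of the genes that flank the clusters, 14 are on the array. Of 13 tested neighbours in gWAT none was lower in NZO and 4 were higher: Skap2 beside HoxA (0.45, SE 0.09), Calcoco2 near HoxB (0.72, SE 0.23), Lnp beside HoxD (0.48, SE 0.13) and Gpr84 near HoxC, which was above background on no B6 gWAT array. This share too was near the 30.7% of all measured genes. The median of the 11 measured neighbours was -0.07.

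Other genes that mark depots by position also parted the tissues. Lhx8, used as a marker of classical brown fat, was above background only in BAT, with means of -0.40 in B6 and -0.70 in NZO. Wt1, a gene of visceral fat and its mesothelium, was above background only in gWAT, with means of 1.34 and 0.88. Tbx15 was above background on no gWAT array, had means of -1.60 and -2.45 in BAT and was highest in muscle at 4.36 and 3.66. Pitx1 and Tbx4, which specify the hind limb, were above background on all muscle arrays and on at most 1 array of any fat group. Tbx5, known from the fore limb and the heart, was highest in BAT, with means of 0.77 and 0.87. It was above background on no B6 gWAT array but on all NZO ones, at a mean of -1.75 (SD 0.90, n = 4). In gWAT 4 of 11 tested position genes were lower in NZO (Thbd, Gpc4, Irx3 and Nr2f1) and 2 higher (Sfrp2 and Tbx5), against 14.7% of all measured genes lower and 30.7% passing in either direction.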

How the data were processed

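Gene expression was measured on 24 one-colour Agilent arrays with 60-base probes. The authors deposited one scanner file per array; per the file headers the spot values are intensity on a linear scale, read with Agilent Feature Extraction 11.0.1.1, while the submitters' processing notes name version 9.1. The deposited series table also holds linear intensity values, equal to the mean of the median signal over a probe's spots within a relative tolerance of 0.0001 in every compared entry, and was used as an alternative. Coordinates of probes are those the files give in mm9; RefSeq promoters are in GRCm38.p6.

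Here control spots and outlier-flagged spots were left out, spots of a probe were averaged, and log2 of the deposited processed signal minus the array's 75th percentile was taken. A gene name was represented by its probe with the highest mean. Each comparison was fitted with limma 3.58.1 in R 4.3.3 on the arrays it concerns (interactions on 23 arrays), over all genes that were above background throughout 1 or more of the groups compared, with Benjamini-Hochberg adjustment over these genes; "measured" genes were above background on all arrays of every group compared. Array number and signal over background limit the precision, and the intensities carry no counts. The script was tested on simulated data.

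The 75th percentile of the processed signal was between 133.6 and 360.0 units over the arrays, which lay on 6 slides. Alternatives were quantile normalization, median centring, normexp background correction (offset 50), no filter on dim probes, the mean of a gene's probes, the deposited table, 1 fit over all arrays, slide and sample number as blocks, and leaving out each array. Same-numbered samples share a number in the labels. Their deviations correlated above 0.1 in all 3 pairs for muscle and gWAT in B6 (0.13, 0.11 and 0.38). The same held for BAT and gWAT in NZO (0.17, 0.26 and 0.35) and for no other comparison. For muscle and gWAT in B6, replicate 015 correlated best with a sample of another number. The main fits of all comparisons used no pairing, and the sample number entered only as a block among the alternatives.

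All Hox genes could be named; of the other lists only cofactors, cluster neighbours and position genes were. The Hox genes and all lists were chosen with earlier results of these data known; the macrophage and progenitor lists and the noncoding transcripts were added after the files had been read. Some genes and a probe sequence are not reported here by name; counts over all genes include them.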

Additional observations from a re-analysis of the deposited data

Results flagged for a closer look

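A single array stood apart from the 3 others of its group in 6 of 114 pairs of gene and group tested by the ratio of the gap to the range (Dixon's test for 4 arrays); chance gives about 1 in 20. Hoxa2 was lowest on B6 gWAT replicate 010 (-3.04, others -2.73 to -2.71) and highest on B6 BAT replicate 011 (-1.63, others -2.26 to -2.18). Hoxa3 was highest on NZO muscle replicate 009 (-0.22, others -0.41 to -0.39), and so was Hoxc4 on the same array (0.83, others 0.42 to 0.45). Hoxc5 was lowest on B6 gWAT replicate 015 (-0.60, others 0.02 to 0.12), and Hoxd8 highest on NZO gWAT replicate 003 (-0.05, others -0.40 to -0.35).

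The strain difference itself differed between tissues for the 25 pairs of gene and comparison given here by limma's interaction test. Between BAT and gWAT the log2 values were 1.15 for Hoxa3, 0.91 for Hoxa5, 0.76 for Hoxa7, 0.87 for Hoxb3, 1.70 for Hoxb5, 2.59 for Hoxb9, 1.06 for Hoxc4, 0.77 for Hoxc6, 1.84 for Hoxd3, 1.58 for Hoxd4 and 0.83 for Hoxd8. Between muscle and gWAT they were 1.35 for Hoxa2, 0.91 for Hoxa3, 1.01 for Hoxa5, 0.92 for Hoxa7, 0.82 for Hoxb2, 0.82 for Hoxb3, 0.91 for Hoxb4, 1.38 for Hoxb5, 2.24 for Hoxb6, 0.82 for Hoxb7, 1.77 for Hoxd3, 1.80 for Hoxd4 and 1.15 for Hoxd8. Between muscle and BAT the value was -0.98 for Hoxc4. Hoxb9 and Hoxd3 were above background on no BAT or muscle array of either strain, and in NZO gWAT on 2 of 4 arrays and on none, so their values set a gWAT difference against background signal. With normexp correction they were 0.56 for Hoxb9 and 0.16 and 0.055 for Hoxd3 and did not pass. Hoxa2 was above background on 2 of 3 B6 muscle arrays, and its value was 0.12 with normexp correction and did not pass.

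On the B6 muscle array left out, replicate 011, Hoxb8 was well above background at -3.03, while it was so on none of the 3 other B6 muscle arrays.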

How the results depend on the processing

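Calls that passed under every alternative and without any single array were 14 of 20 and 9 of 12 for BAT against gWAT, 21 of 26 and 16 of 21 for muscle against gWAT and 20 of 21 and 21 of 23 for muscle against BAT, B6 before NZO in each. They were 7 of 18, 1 of 3 and 0 of 3 for the strains in gWAT, BAT and muscle, and 2 of 12, 1 of 14 and 0 of 1 for the interactions of BAT with gWAT, muscle with gWAT and muscle with BAT. The reversals were in the tissue comparisons. Over all comparisons, 1417 of 1543 gene results passed again in fits without 1 array and 126 did not, with no reversal; median centring kept 136 of 174 and slide as a random block 172 of 174. Normexp correction turned the sign of 5 called differences. Hoxd3, not above background in BAT or muscle, turned to 0.40 in BAT and 0.36 in muscle against gWAT in B6 and passed the limma test with the new sign (adjusted p = 0.00513 and 0.00778). The 3 others did not pass: Hoxd9 turned to 0.048 in BAT against gWAT in NZO, Hoxa2 to 0.13 in muscle against gWAT in B6 and Hoxb3 to 0.011 in muscle against gWAT in NZO.

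Counts of called Hox genes moved by over 1.5 times as follows. With arrays centred on the median they were 11 for NZO against B6 in gWAT, 0 in muscle, and 5, 5 and 0 for the interactions of BAT with gWAT, muscle with gWAT and muscle with BAT. Without the filter on dim probes they were 19 for BAT against gWAT in NZO, 1 for the strains in BAT and 0 in muscle. The strain count in muscle was 1 with B6 replicate 011, and the muscle and BAT interaction 2 in the deposited table and 2 with slide as a block. Where limma called 0 genes, the unadjusted p was under 0.05 for 6 Hox genes in muscle with median centring (2 higher, 4 lower), for 9 without the filter (3 higher, 6 lower) and for 3 in the interaction (1 higher, 2 lower). The cause of these changes was not tested.

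Leaving out 1 array gave 18 to 21, 12 to 15, 25 to 27, 20 to 22, 20 to 22 and 21 to 22 calls for BAT against gWAT, muscle against gWAT and muscle against BAT, B6 before NZO in each. It gave 12 to 17, 1 to 4 and 0 to 4 for the strains in gWAT, BAT and muscle, and 9 to 14, 10 to 15 and 1 to 2 for the interactions in the order above. With the replicate block the tissue counts were 20, 12, 25, 19, 21 and 21; Hoxc5 (0.64) was lost for BAT against gWAT in B6, Hoxb3 (-0.45) and Hoxb6 (2.26) for muscle against gWAT in NZO, Hoxa7 (0.50) and Hoxc6 (-0.44) for muscle against BAT in NZO, and Hoxb6 (2.16) for the interaction of muscle with gWAT. Beside Hoxd8 in B6 muscle, no other call was lost with the block. Gained with it were Hoxb9 for the interaction of muscle with gWAT and, for BAT against gWAT in B6, a gene not reported here by name.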

Other observations

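Noncoding transcripts of the clusters, singled out after the data were seen, were read from probes of their own. Hoxa11os, transcribed opposite to Hoxa11, was probed on the plus strand at chr6:52199709-52199768 of mm9. Unlike Hoxa11 it was above background on all BAT arrays, with means of -1.91 (SD 0.41, n = 4) in B6 and -2.99 (SD 0.90, n = 4) in NZO, and on 3 of 4 gWAT arrays in either strain. It was highest in muscle, at -0.31 (SD 0.08, n = 3) and 0.12 (SD 0.27, n = 4), above BAT by 1.60 (SE 0.22, limma adjusted p = 0.000629) in B6 and 3.10 (SE 0.41, limma adjusted p = 0.000236) in NZO. HOTAIR, from between Hoxc11 and Hoxc12, was above background on all arrays of all groups and higher in muscle than in gWAT by 1.04 (SE 0.22) in B6 and 1.70 (SE 0.39) in NZO; against BAT its muscle differences of 0.81 (SE 0.42) and 0.77 (SE 0.50) did not pass. Its 5 probes were not compared, and the probe with the highest mean was used.

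The NZO gWAT arrays did not all sit at the same place. Of 23 Hox genes above background on all 4, 10 had replicates 007 and 009 as the lower pair, among them Hoxa2, Hoxb2, Hoxb3, Hoxb5, Hoxb6, Hoxb8, Hoxd4, Hoxd8 and Hoxd9. For Hoxb8 these were at -3.62 and -4.10 against -1.72 and -1.63 on the others, and for Hoxd4 at -1.60 and -2.65 against -0.55 and -0.59. Hoxc9 had another order, with 2.27 on replicate 007, 1.51 on 009, 1.24 on 003 and 0.33 on 012. Mesothelial markers summed to 3.66 and 3.77 on replicates 007 and 009 and to 3.54 and 3.72 on 012 and 003, and macrophage markers to 7.51 and 7.56 against 7.71 and 7.49. This order was noticed in the data and was not tested. Its share over all genes was not counted, so it is not read as particular to Hox genes.

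On the B6 muscle array left out, replicate 011, 11 of the 29 Hox genes measured on all arrays of some group were above the range of the other B6 muscle arrays, 10 below and 8 within it. Among them, Hoxc8 was at -1.72 (others -4.06 to -3.51) and Hoxb4 at -0.09 (others -1.80 to -1.31), while Hoxa10 was at -0.54 (others 0.08 to 0.44) and Hoxc9 at 2.92 (others 3.42 to 3.60). The share of all genes outside the range of the other arrays was not counted, so this split is not read as particular to Hox genes.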
